A study of Mus musculus with 10 samples.

Results

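The genes described are 10 mouse genes of the sperm head cytoskeleton: the actin-like genes Actl7a, Actl7b, Actl9 and Actl11, the actin-related genes Actrt1, Actrt2 and Actrt3, the cylicin genes Cylc1 and Cylc2, and Capza3, which encodes the alpha subunit of actin capping protein found in the male germ line. They were chosen by gene symbol for what their products are, and all 10 are among the 15507 genes of the deposited table. The study sequenced polyadenylated RNA of germ cells from 5 WT mice and 5 GRTH-KI mice, each 45 days old and each prepared on its own as 1 library. GRTH is the testis RNA helicase encoded by Ddx25, and the comparison asks which transcripts differ when its phosphorylated form is missing. KI mice were homozygous for a knock-in of the human GRTH gene bearing the R242H change, whereas WT mice carried no knock-in. The cells were dispersed from the seminiferous tubules with collagenase and trypsin, and the fraction contains spermatogonia, spermatocytes and spermatids together. In such a mixture, fewer cells of a type and less RNA per cell cannot be told apart.

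The perinuclear theca is a rigid protein capsule between the nuclear envelope of the sperm head and the membranes outside it. Its front layer holds the acrosome to the nucleus, and its rear part, the calyx, covers the rest of the nucleus. Round spermatids begin to build it beneath the growing acrosome, where a plate of actin and keratin-like filaments forms, and the actin-related proteins of the testis are thought to serve there in place of, or beside, ordinary actin. Loss of ACTL7A or ACTL9 is known to detach the acrosome and to cause failed fertilization, and loss of the cylicins disturbs the calyx and the shape of the head.

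Most of these genes are compact. In the basic annotation of GENCODE vM21, Actl7a, Actl7b, Actl9, Actl11, Actrt1, Actrt2 and Capza3 each have a single exon. There, 7 of the 10 thus have no intron and 3 are spliced, with 2 exon blocks in Actrt3, 5 in Cylc2 and 6 in Cylc1. The full gene model of Capza3 reaches beyond its exon of the basic annotation, and was not examined for introns. In mm10 coordinates, Actl7b lies on the minus strand at chr4:56740005-56741425, and Actl7a on the plus strand at chr4:56743422-56744925. Their starts are 1997 bases apart and the genes point away from each other. Actl9 lies at chr17:33432899-33434267, Actl11 at chr9:107928469-107932461 and Cylc2 at chr4:51216678-51229928, all on the plus strand. Actrt1 at chrX:46329007-46330345 and Cylc1 at chrX:111110418-111125854 are X-linked and on the plus strand. Actrt2 at chr4:154666428-154667867 and Actrt3 at chr3:30597073-30599870 are on the minus strand. Capza3, on the plus strand at chr6:140041557-140042837, starts 140 bases from Plcz1, which runs the other way.

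The sequences before the starts are shown because some of these genes share a short element there. The RefSeq promoter table (GRCm38.p6, the mm10 build) held windows for 8 of the 10 genes, and the bases upstream of the annotated start are printed 5′ to 3′ on the strand of the gene. Capitals mark TGATGTCA or its reverse complement TGACATCA, a letter sequence that differs by a single base from the cyclic AMP response element TGACGTCA and was chosen after the windows had been seen. The first 4 genes hold it in these windows, and Actl11, Actrt1, Actrt2 and Actrt3 do not.
Actl7a, chr4:56743172-56743421, plus strand: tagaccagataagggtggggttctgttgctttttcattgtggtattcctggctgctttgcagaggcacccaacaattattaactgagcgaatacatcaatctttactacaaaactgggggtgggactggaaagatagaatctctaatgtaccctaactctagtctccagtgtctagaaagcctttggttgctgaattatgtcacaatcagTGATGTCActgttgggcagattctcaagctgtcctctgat
Actl7b, chr4:56741426-56741675, minus strand: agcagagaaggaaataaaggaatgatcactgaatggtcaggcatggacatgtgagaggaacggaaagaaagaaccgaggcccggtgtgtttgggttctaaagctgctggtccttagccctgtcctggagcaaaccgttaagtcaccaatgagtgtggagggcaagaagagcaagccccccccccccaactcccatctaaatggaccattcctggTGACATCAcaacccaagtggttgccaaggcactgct
Actl9, chr17:33432649-33432898, plus strand: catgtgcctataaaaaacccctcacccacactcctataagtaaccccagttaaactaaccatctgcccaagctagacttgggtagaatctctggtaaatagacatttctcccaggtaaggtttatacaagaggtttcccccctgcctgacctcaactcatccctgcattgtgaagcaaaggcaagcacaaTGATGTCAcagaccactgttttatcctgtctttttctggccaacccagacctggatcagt
Cylc1, chrX:111110168-111110417, plus strand: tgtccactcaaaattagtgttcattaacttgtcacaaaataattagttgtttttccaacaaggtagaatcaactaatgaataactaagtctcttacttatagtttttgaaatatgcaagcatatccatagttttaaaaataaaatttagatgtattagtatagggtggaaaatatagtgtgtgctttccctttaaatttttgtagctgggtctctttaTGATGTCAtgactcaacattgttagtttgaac
Actl11, chr9:107928219-107928468, plus strand: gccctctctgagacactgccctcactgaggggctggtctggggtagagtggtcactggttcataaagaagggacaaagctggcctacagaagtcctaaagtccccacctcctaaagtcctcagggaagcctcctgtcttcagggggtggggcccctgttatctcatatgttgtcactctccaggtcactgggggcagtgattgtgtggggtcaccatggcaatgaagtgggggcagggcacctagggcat
Actrt1, chrX:46328757-46329006, plus strand: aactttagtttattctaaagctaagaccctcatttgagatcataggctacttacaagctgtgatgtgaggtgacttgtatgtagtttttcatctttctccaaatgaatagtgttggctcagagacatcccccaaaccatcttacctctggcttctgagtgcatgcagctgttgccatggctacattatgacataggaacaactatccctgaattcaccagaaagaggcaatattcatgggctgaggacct
Actrt2, chr4:154667868-154668117, minus strand: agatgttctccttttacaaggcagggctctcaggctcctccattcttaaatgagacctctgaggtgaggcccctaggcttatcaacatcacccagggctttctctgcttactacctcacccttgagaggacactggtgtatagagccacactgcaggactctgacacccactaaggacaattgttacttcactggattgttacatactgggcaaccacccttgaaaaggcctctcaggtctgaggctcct
Actrt3, chr3:30599871-30600120, minus strand: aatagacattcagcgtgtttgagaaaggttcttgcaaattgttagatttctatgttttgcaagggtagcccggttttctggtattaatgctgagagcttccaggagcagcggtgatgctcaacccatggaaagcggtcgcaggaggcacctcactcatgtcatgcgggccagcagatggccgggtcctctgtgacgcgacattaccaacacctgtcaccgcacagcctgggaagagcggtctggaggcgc

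The marked letters begin at position −60 from the start in Actl9, −40 in Actl7a, −36 in Actl7b and −32 in Cylc1. They were searched on both strands of the full RefSeq windows of 300 bases, which run from 250 before to 50 after the start. They occurred in the windows of 4 of 8 members and in 1189 of the 32851 windows searched, or 3.62%. A chromosome that holds no member was left out of this search. Because the letters were chosen after the member windows had been seen, the 2 shares do not test an enrichment. The element TGACGTCA itself occurred in 0 of the 8 member windows and in 588 of the windows searched, or 1.79%. The log2 fold changes (KI minus WT) of the 4 genes that hold the marked letters were −1.09 for Actl9, −0.78 for Cylc1, −0.45 for Actl7a and −0.04 for Actl7b. Those of the 4 genes without them were −1.69 for Actl11, −1.23 for Actrt1, −1.18 for Actrt2 and 0.42 for Actrt3.

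In KI germ cells, 7 of the 10 genes fell: Actl11, Actl9, Actrt1, Actrt2, Capza3, Cylc1 and Cylc2. Actl7a was lower by less than the fold required, Actl7b was nearly equal, and Actrt3 was the only gene of the group with a higher mean in KI. Expression was tested with limma on log2(normalised read count + 1), and a gene was called when its Benjamini-Hochberg adjusted p over 15389 genes was below 0.05 and its fold change at least 1.5. The same rule called 8.22% of all genes lower and 6.13% higher, against 70% (7 of 10) and 0 of the 10 members. The quasi-likelihood test of edgeR and DESeq2 gave counts of 7 and 0 as well. At an unadjusted limma p below 0.05 there were 8 members lower and 1 higher, and the share of all genes at that p is not given here. On limma adjusted p below 0.05 alone, 8 members and 2044 of 15389 genes were lower. In the other direction there were 0 members and 1485 genes. Over the 10 genes the median log2 fold change (KI minus WT) was −0.93, and over all genes tested it was 0.03. KI and WT libraries did not overlap, with KI below, in 6 members, which was so for 10.9% of all genes. The reverse, KI above WT without overlap, held for 0 members and 6.80% of all genes.

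**Figure D1:**
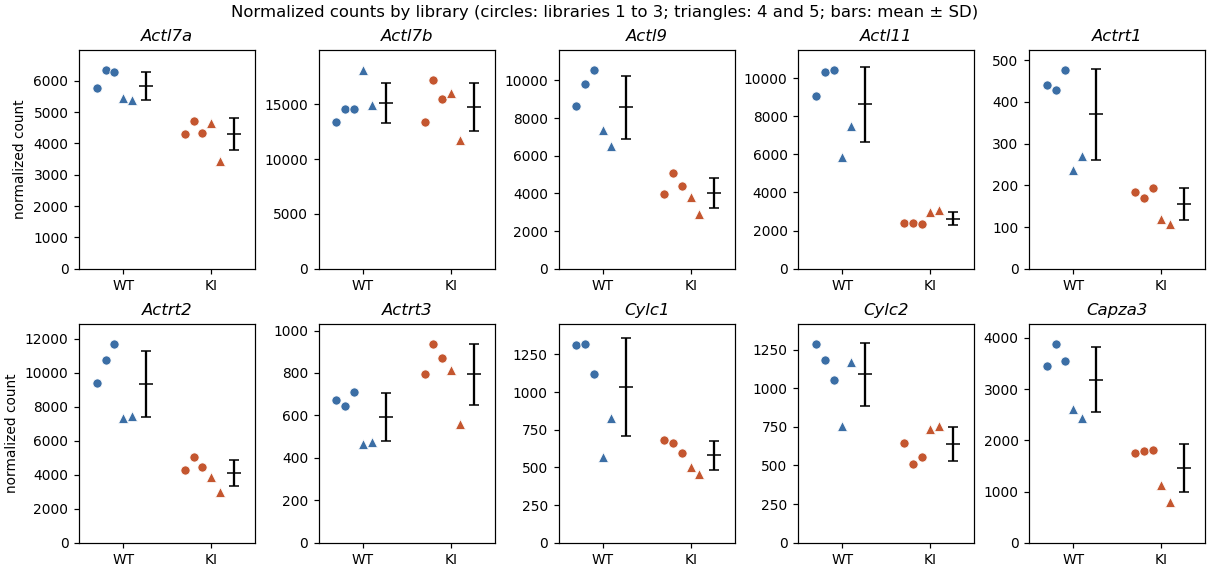
Normalised read counts (axis from 0, one panel a gene) of the 10 genes in each library, WT in blue and KI in orange, with circles for libraries 1 to 3, triangles for libraries 4 and 5, and bars for mean ± SD. KI libraries sit wholly below WT for Actl7a, Actl9, Actl11, Actrt1, Actrt2 and Capza3, the groups overlap for Actl7b, Actrt3, Cylc1 and Cylc2, and Actl7b is close to level.

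**Figure D2:**
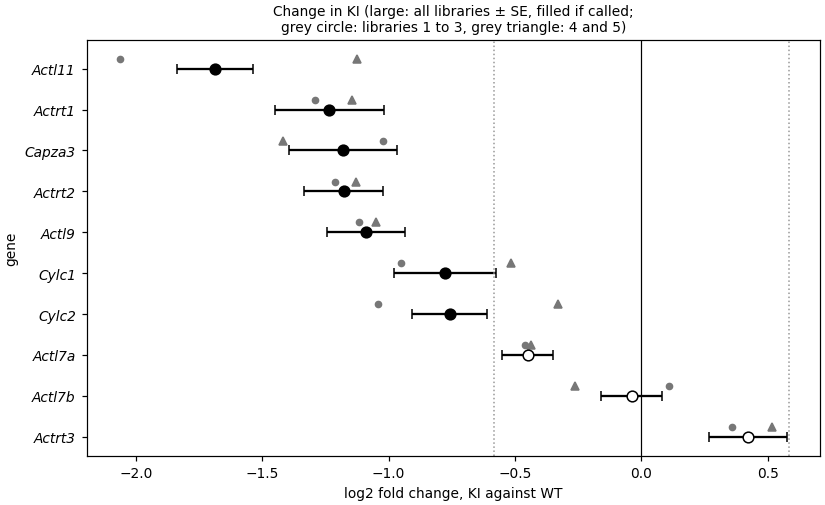
Log2 fold change (KI minus WT) of each gene from the limma fit ± SE, filled where called, with grey circles for libraries 1 to 3 alone, grey triangles for libraries 4 and 5 alone and dotted lines at a fold of 1.5. The estimates run from −1.69 for Actl11 to 0.42 for Actrt3, and Actl7b lies at −0.04.

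The libraries held 12722086 to 16422347 reads on genes, and each member had between 117 and 19818 reads in every library, so that counting error was small beside the spread between mice. Ddx25, the targeted gene, had a mean of 8231 ± 2209 normalised read counts in WT (SD, n = 5). Reads were counted on mouse mm10 genes, and how much of the human knock-in transcript these counts include was not tested. In KI, Ddx25 read 146, 194 and 161 in libraries 1 to 3 and 2.88 and 1.84 in libraries 4 and 5. The libraries thus differed by number as well as by genotype, and on the second principal component, libraries 1 to 3 of both genotypes lay between 2.82 and 9.51 and libraries 4 and 5 between −11.7 and −6.44. Values are therefore also given within these library sets. P-values of the main fit and of the unpaired permutation tests measure the spread between the 5 mice of each genotype. That spread includes the difference between the library sets.

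Actl11 showed the largest fall of the group over all libraries and in libraries 1 to 3, though not in libraries 4 and 5, where its log2 fold change of −1.12 was exceeded by Capza3 (−1.42), Actrt1 (−1.15) and Actrt2 (−1.13). Its normalised read counts in WT were 9059, 10299, 10429, 5845 and 7470 in libraries 1 to 5, and in KI they were 2384, 2381, 2348, 2968 and 3095. The lowest WT library was above the highest KI library, and the means were 8620 ± 1956 and 2635 ± 365 (SD, n = 5). The fold change from the limma fit on log2 values was 3.22. The log2 fold change was −1.69 (SE 0.15, limma adjusted p = 1.41e-06). The gene encodes an actin-like protein and has a single exon of 3993 bases, against 1222 to 1996 bases of exon in the other members.

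Actl9, the product of which is needed for acrosome attachment, fell to about 47.0% of its WT mean. WT libraries read 8649, 9822, 10567, 7354 and 6521 normalised counts, and KI libraries read 3950, 5069, 4385, 3839 and 2910. No KI library reached the lowest WT value. The log2 fold change was −1.09 (SE 0.15, limma adjusted p = 1.08e-04).

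Actl7a, the other gene of this acrosome-anchoring pair, gave a smaller difference. WT libraries held 5783, 6347, 6264, 5438 and 5377 normalised counts and KI libraries 4311, 4727, 4330, 4651 and 3436. The groups did not overlap, yet the fold change from the limma fit was only 1.37, below the fold of 1.5 required. The log2 fold change was −0.45 (95% interval −0.67 to −0.23, limma adjusted p = 0.00460). With scaling by library totals it was −0.22 (limma adjusted p = 0.0777).

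Actl7b, which is required for the shaping of spermatids, was the most abundant member and the least different. Its WT libraries read 13338, 14579, 14581, 18136 and 14907 normalised counts and its KI libraries 13396, 17224, 15437, 15983 and 11749. The highest value was in a WT library and the lowest in a KI library, with the others interleaved. The log2 fold change was −0.04 (95% interval −0.30 to 0.22, limma adjusted p = 0.858), and its sign depended on scaling: it was 0.19 when libraries were scaled by their totals and 0.0545 with upper quartile scaling. Of the 50-base words of Actl7b, 90.6% also lie in the antisense GENCODE model Gm26657, a symbol RefSeq lists as a synonym of Actl7b, and because no source used here says whether reads were counted by strand, the 2 models cannot be told apart.

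Within a library, the ratio of Actl7a to its neighbour Actl7b differed between genotypes, by −0.41 on the log2 scale (SE 0.11, exact two-sided permutation test, p = 0.0159, adjusted p = 0.0254 over 8 ratios). A ratio of this kind does not depend on how libraries are scaled. The groups of ratios overlapped through WT4, and the adjusted p rose to 0.0508 when any of WT1, WT2, WT3, WT5, KI2, KI3 or KI4 was left out. By library set, the difference was −0.57 for the first 3 numbers and −0.17 for numbers 4 and 5. The ratio of Actl7a to Actl9 was higher in KI by 0.64 (SE 0.11, exact permutation adjusted p = 0.0159) with no overlap between the genotypes.

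Actrt2 and Actrt1 encode the actin-related proteins T2 and T1, first found in the calyx of the sperm head. Actrt2 read 9417, 10758, 11707, 7331 and 7453 normalised counts in WT and 4259, 5028, 4462, 3862 and 2958 in KI. Every KI library was below every WT library, and the log2 fold change was −1.18 (SE 0.16, limma adjusted p = 6.24e-05). Actrt1 was the least abundant member, with 441, 428, 477, 237 and 270 in WT and 184, 169, 195, 120 and 108 in KI. These groups did not overlap either, and the log2 fold change was −1.23 (SE 0.22, limma adjusted p = 6.71e-04).

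Actrt3, whose product is known to bind profilin 3, took the other direction. It read 673, 643, 709, 465 and 474 normalised counts in WT and 793, 938, 871, 812 and 558 in KI. All KI libraries but KI5 were above the highest WT library, and in each of the 5 library numbers the KI value was above the WT value. The log2 fold change was 0.42 (95% interval 0.09 to 0.75), and with a limma adjusted p of 0.0606 the gene was not called. The adjusted p was 0.00419 with the library number as a replicate block and 0.00736 without KI5, at a fold change below 1.5 in both, and only scaling by library totals gave a call, at a log2 fold change of 0.65 (limma adjusted p = 0.00551).

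The ratios of the Actrt genes within a library separated Actrt3 from the other two. The log2 ratio of Actrt2 to Actrt3 lay between 3.81 and 4.06 in WT and between 2.25 and 2.42 in KI, a difference of −1.60 (SE 0.06, exact permutation adjusted p = 0.0159). The ratio of Actrt1 to Actrt3 differed by −1.66 (SE 0.14, exact permutation adjusted p = 0.0159). In contrast, the ratio of Actrt1 to Actrt2 differed by −0.06 (SE 0.13, exact permutation adjusted p = 0.771). An exact sign-flip test over the 5 same-numbered pairs of libraries cannot give a p below 0.0625, and no ratio passed in that form.

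**Figure D3:**
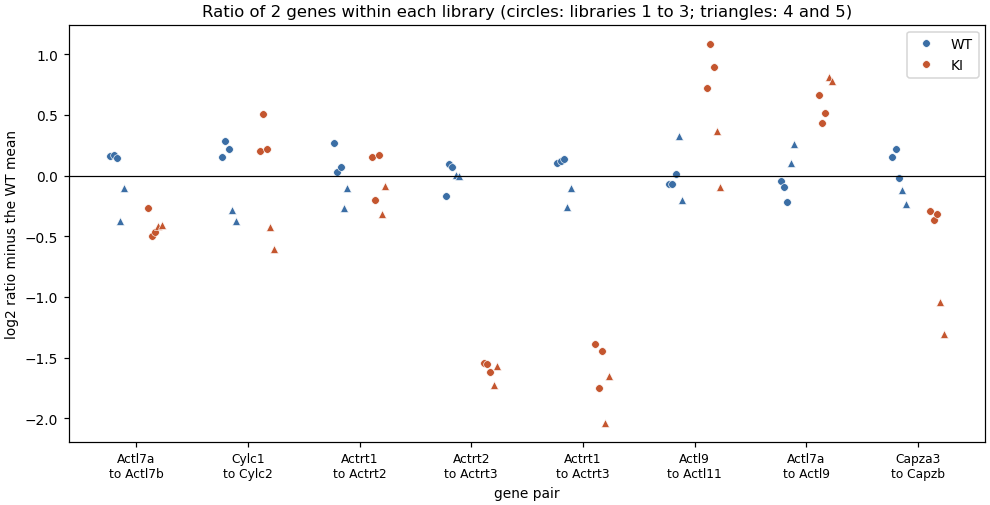
Log2 ratio of normalised read counts within each library for 8 pairs of genes, drawn as the distance from the WT mean of the pair, with WT in blue, KI in orange, circles for libraries 1 to 3 and triangles for libraries 4 and 5. The Actrt2 to Actrt3 and Actrt1 to Actrt3 ratios separate the genotypes, with differences of −1.60 and −1.66, while Cylc1 to Cylc2 and Actrt1 to Actrt2 overlap.

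Cylc1 and Cylc2 encode the cylicins, basic proteins of the calyx. Cylc1 read 1315, 1322, 1122, 572 and 828 normalised counts in WT and 680, 664, 595, 506 and 458 in KI. Cylc2 read 1288, 1180, 1052, 757 and 1167 in WT and 644, 508, 557, 738 and 758 in KI. In both genes a WT library, WT4, fell among the KI values, so the groups overlapped. The log2 fold changes were −0.78 (SE 0.20, limma adjusted p = 0.0112) for Cylc1 and −0.76 (SE 0.15, limma adjusted p = 0.00159) for Cylc2.

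The calls of the cylicin genes were lost without libraries 1 to 3, in which the log2 fold changes were −0.95 for Cylc1 and −1.04 for Cylc2. In libraries 4 and 5 alone they were −0.51 (limma adjusted p = 0.101) and −0.33 (limma adjusted p = 0.306). With scaling by library totals they were −0.55 and −0.53, below the fold required. The ratio of Cylc1 to Cylc2 differed by −0.02 between genotypes (SE 0.25, exact permutation adjusted p = 0.897), although Cylc1 was lower in libraries 4 and 5 than in libraries 1 to 3 and Cylc2 was not.

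Capza3 pairs with a beta subunit to cap the barbed ends of actin filaments, and is known as the alpha subunit gene of spermatids. It read 3459, 3887, 3547, 2614 and 2428 normalised counts in WT and 1749, 1801, 1811, 1127 and 787 in KI. The groups did not overlap, and the log2 fold change was −1.18 (SE 0.21, limma adjusted p = 9.14e-04). The full GENCODE gene models of Capza3 and Plcz1 overlap by 206 bases, and 3.81% of the 50-base words of Capza3 lie in Plcz1 too.

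Capza1 and Capza2, which encode the other alpha subunits of capping protein, are given for comparison with Capza3. Capza1 had 5400 ± 532 normalised counts in WT and 5363 ± 809 in KI (SD, n = 5), a log2 fold change of −0.02 (95% interval −0.26 to 0.22), and that of Capza2 was −0.19 (95% interval −0.43 to 0.06). Per kb of exon, Capza3 made up 56.9, 62.1, 61.3, 56.5 and 51.4% of the transcripts of the 3 genes in WT and 43.8, 47.2, 47.6, 29.5 and 24.7% in KI. The share differed by −19.0 percentage points in KI (57.6 ± 4.31 against 38.6 ± 10.7%, SD, n = 5, exact two-sided permutation p = 0.00794, the smallest it can give). The first 3 numbers alone gave −13.9 points and numbers 4 and 5 alone −26.8. The exact sign-flip test over same-numbered pairs gave p = 0.0625, the smallest possible there. Against Capzb, which encodes the beta subunit, Capza3 was lower by 0.66 on the log2 scale (SE 0.23, exact permutation adjusted p = 0.0159).

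As a group, the 10 genes took 0.336 ± 0.0296% of the reads on genes in WT and 0.246 ± 0.0355% in KI (SD, n = 5), a difference of −0.0900 percentage points (exact two-sided permutation p = 0.00794). The highest KI library, at 0.286%, was below the lowest WT library, at 0.303%. The exact sign-flip test over those pairs gave p = 0.0625. This share uses no size factor, but is weighted to Actl7b, the gene with the most reads.

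Compared per kb of exon, the order of the genes shifted between genotypes. Actl7b led both, at 10499 normalised counts per kb in WT and 10256 in KI, and was 57th and 36th among 15264 genes with a gene model. In WT it was followed by Actrt2 at 6504 and Actl9 at 6251 per kb, whose ranges overlapped, and then by Actl7a at 3861, below both. In KI, Actl9 at 2936, Actrt2 at 2867 and Actl7a at 2836 could not be told apart by their ranges.

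Capza3 and Actl11 came next, at 2608 and 2159 normalised counts per kb in WT and at 1191 and 660 in KI, with overlapping ranges in each genotype. The lower end in WT was Cylc2 at 651, Cylc1 at 517, Actrt3 at 302 and Actrt1 at 277 per kb, each overlapping the next. In KI, Actrt3 stood at 405 per kb, level with Cylc2 at 383 and Cylc1 at 291, and Actrt1 at 116 was below all of them. Actl11 moved from 585th to 1862nd of all ranked genes.

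**Figure D4:**
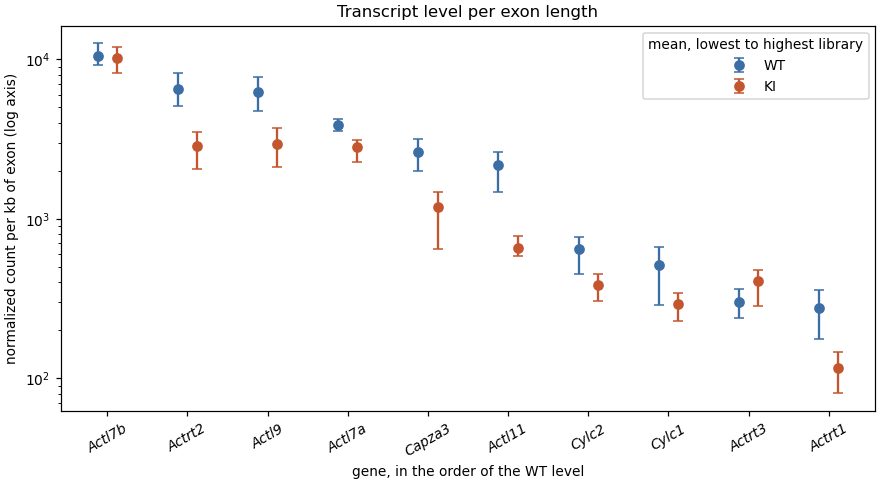
Mean normalised read count per kb of exon (log axis) of each gene in WT and KI, with the range over the 5 libraries of each genotype. Actl7b stays near 10499 and 10256 per kb, Actl9, Actrt2 and Actl7a meet near 2836 to 2936 per kb in KI, and Actrt3 is the gene with a higher mean in KI.

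The size of the fall in Actl11 also differed between the library sets. Its log2 fold change was −2.06 among libraries 1 to 3 and −1.12 among the others. The difference of 0.94 was tested as an interaction in limma (SE 0.15, adjusted p = 0.0228), a test that called 0.247% of all genes. No other member was called. At an unadjusted p below 0.05 in that test there were 4 members, and 2479 of all 15389 genes. The estimates of Cylc2 (0.71, adjusted p = 0.125), Cylc1 (0.44, adjusted p = 0.285) and Capza3 (−0.40, adjusted p = 0.270) in the same limma fit did not pass. Between the sets, in the same order, the log2 fold changes were −1.12 and −1.05 for Actl9, −1.29 and −1.15 for Actrt1, −1.21 and −1.13 for Actrt2, −1.02 and −1.42 for Capza3, and −0.46 and −0.44 for Actl7a. Actrt3 was higher in KI in both sets, at 0.36 and 0.52, and Actl7b changed sign, at 0.11 and −0.26.

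Across the 10 libraries, with genotype means removed, most of the genes varied together. The correlation of a gene with the mean of the other 9 was 0.949 for Actrt2 and for Actrt3, 0.902 for Actrt1, 0.884 for Actl9, 0.870 for Cylc1, 0.807 for Actl7a and 0.799 for Capza3. Actrt3 thus followed Actrt2 from mouse to mouse although its difference between genotypes had the other sign. Actl11 (0.329), Cylc2 (−0.0316) and Actl7b (−0.0752) stood apart. These are descriptions over 10 libraries that share the split between libraries 1 to 3 and libraries 4 and 5, in which Actrt1 (−0.75), Capza3 (−0.72), Cylc1 (−0.64), Actrt2 (−0.48), Actl9 (−0.44) and Actrt3 (−0.44) were lower in the latter on the log2 scale.

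The 5 other genes whose residual pattern was most like the mean of the 10 were Fam71f1 (r = 0.994), Abhd5 (0.993), Morn3 (0.992), Sh3rf2 (0.991) and Lrrc18 (0.990), among 10517 genes compared over the same 10 libraries. All 5 were also called lower in KI. Their log2 fold changes lay between −1.22 for Lrrc18 and −0.80 for Abhd5.

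Among 18 other genes of the theca and of acrosome anchoring, 3 fell and 0 rose in limma, edgeR and DESeq2 alike, with a median log2 fold change of −0.31 in limma. At an unadjusted limma p below 0.05, 11 were lower and 0 higher. Plcz1, the sperm phospholipase that starts calcium oscillations in the egg, had a log2 fold change of −1.43. That of Fam209 was −1.02, and that of Wbp2nl, which encodes a theca protein, −0.78. A further 6 were lower with a limma adjusted p below 0.05 at a fold under 1.5. Among genes singled out after their values were seen, Fabp9, an abundant theca protein gene, had a log2 fold change of −0.54, Spaca1 −0.53 and Pfn4 −0.57. Ccin, which encodes the calyx protein calicin, was at 0.03 (95% interval −0.19 to 0.26), and Pfn3, the profilin partner of Actrt3, at −0.19 (95% interval −0.47 to 0.09).

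The list of actins and actin-related genes of all cells gave 0 calls in 13 genes tested with limma, edgeR or DESeq2, and a median log2 fold change of 0.03. It also holds the actin-like gene Actl10, named after its value was seen, at −0.16 (limma adjusted p = 0.548). At an unadjusted limma p below 0.05, 2 were lower and 1 higher. Actb was at 0.03 (95% interval −0.19 to 0.25) and Actg1 at 0.08 (95% interval −0.11 to 0.27). Of 2 muscle actin genes tested, Actg2 fell by 1.37 on the log2 scale, from a mean of 3325 ± 686 to 1279 ± 225 normalised counts (SD, n = 5), and Acta2 rose by 0.78 from a far lower level. Among 15 genes of actin capping and monomer binding, 1 fell and 0 rose with each of the 3 tools (4 lower and 3 higher at an unadjusted limma p below 0.05). The gene that fell was Tmod4, a pointed-end capper, with 34.5 ± 17.1 normalised counts in WT and 1.87 ± 1.46 in KI (SD, n = 5), where the KI mean is below the 2.61 to 3.09 normalised counts that 3 reads are worth. The median of that list was −0.02. Capzb had a log2 fold change of −0.52 (limma adjusted p = 9.46e-04), short of the fold required.

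The 9 genes of the Arp2/3 complex, which nucleates branched actin, had 0 calls in limma, edgeR and DESeq2 (2 lower and 2 higher at an unadjusted limma p below 0.05) and a median of 0.02, with Arpc2 at 0.02 and Arpc1a at −0.52. Of 13 genes of the manchette, the microtubule skirt that shapes the head, 3 fell and 0 rose with each tool (5 lower and 1 higher at an unadjusted limma p below 0.05), with a median of 0.01. Those, named after their values were seen, were Hook1 at −0.89, Kif17 at −0.96 and Spem1 at −2.66, and the most abundant, Meig1 and Rimbp3, were at −0.31 and −0.08 and not called.

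**Figure D5:**
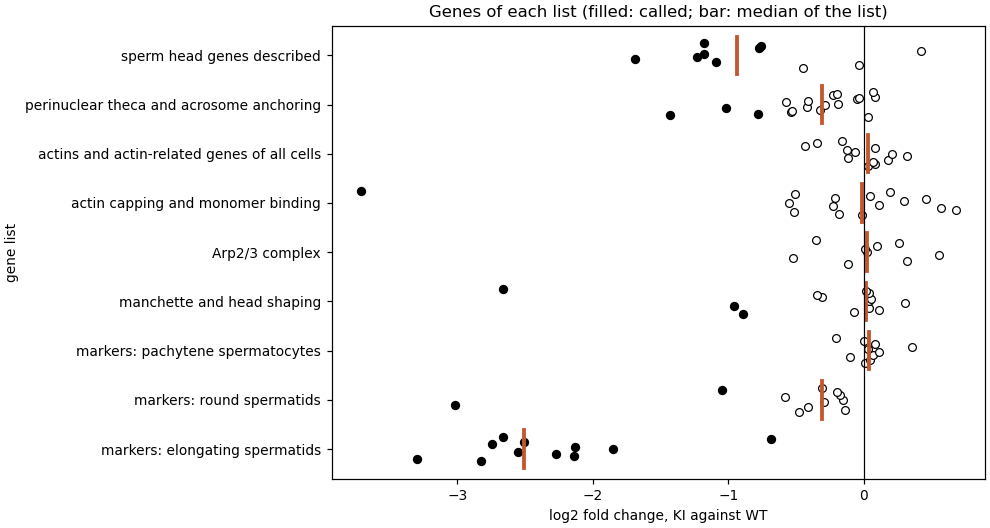
Log2 fold change (KI minus WT) of every tested gene in 9 lists of related genes and cell type markers, with 1 point a gene, filled where called, and an orange bar at the median of each list. The 10 sperm head genes lie at a median of −0.93, the list of actins and actin-related genes of all cells at 0.03 and the markers of elongating spermatids at −2.50.

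Cell type markers differed by list in how they moved. All 11 markers of elongating spermatids fell, with a median of −2.50, and their summed normalised counts were 270853 to 478120 in WT and 42056 to 83106 in KI. Prm2 and Tnp2, the leading genes, had log2 fold changes of −3.30 and −2.27. Of 11 round spermatid markers 2 fell, Tssk6 at −3.02 and Lyzl1, named after its value was seen, at −1.04, and Tssk1 stood at −0.41. The median of that list was −0.31 and its sums were 31336 to 37349 against 13681 to 22717. Most of the difference between these sums came from Tssk6, with a mean of 11565 in WT and 1481 in KI, and 9 of the 11 markers were not called. Of the markers in both lists, 0 were at or below 3 reads in every library. The authors cite their earlier work, in which loss of phosphorylated GRTH affected Tnp2, Prm2 and Tssk6 in both mRNA and protein. For these markers too, fewer cells and less RNA per cell cannot be told apart. The study reports that in KI mice the elongation of round spermatids fails, leaving neither elongating spermatids nor sperm. The part of either kind of spermatid in the fall of the 7 genes was not tested.

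Markers of earlier germ cells gave 0 calls in limma, edgeR and DESeq2. Spermatogonial markers (8 tested, 1 lower and 1 higher at an unadjusted limma p below 0.05) had a median of 0.01, with Dazl at −0.13 and Uchl1 at −0.0019. Pachytene markers (10 tested, 0 lower and 1 higher at that p) had a median of 0.04, with Ybx2 at −0.20 and Hspa2 at 0.07. Somatic markers were present in both genotypes: 0 of 10 Sertoli cell markers were called with any of the 3 tools (0 lower and 1 higher at an unadjusted limma p below 0.05), with Clu at −0.01 and Inha at 0.10, whereas 3 of 7 Leydig cell markers rose in limma and edgeR and 5 in DESeq2 (Insl3 by 0.82 and Cyp17a1 by 0.70 on the log2 scale in limma). With each of the 3 tools, 5 of 9 macrophage markers rose, with Mrc1 at 0.10 and Fcgr3 at 0.12 not called in limma, and 2 of 5 endothelial markers rose (Vwf by 1.05, Cdh5 by 0.66). Peritubular myoid and smooth muscle markers gave 1 fall and 2 rises in 5 genes tested with limma, and 1 fall with 1 rise in edgeR and 3 in DESeq2, with Actg2 and Acta2 as above. The WT mean of Actg2 was 3325 normalised counts and that of Acta2 was 47.7. Which cells the Actg2 reads came from was not tested, so its fall is not assigned to myoid cells.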

How the data were processed

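RNA of germ cells from 5 WT and 5 KI mice was sequenced as paired-end reads, 1 library per mouse, grouped by the sample labels. The authors aligned reads to mm10 with STAR and counted them on RefSeq genes with the Partek E/M model. The deposited values are a signal, namely read counts divided by DESeq2 size factors, called normalised read counts here. Dividing by the value of 1 read returned whole reads (tolerance 0.1) for 100% of values under 5000 reads. That value times the DESeq2 size factor recomputed from those reads was constant over libraries to within 3.42e-06 percent. The Stop coordinate in the deposited table lies 1 base past the last base of a gene, and ends are given here without it. Tool versions used upstream are not given in the sources used here.

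Genes that passed filterByExpr of edgeR 4.0.16 were fitted in R 4.3.3 with limma 3.58.1, using a trended variance on log2(value + 1). The quasi-likelihood test of edgeR and DESeq2 1.42.0 were run on recovered reads as alternatives, with other scalings, pseudocounts, filters and thresholds, a replicate block, a library set term, each set alone, and each library left out. Single values and ratios were compared by exact permutation over all arrangements of 5 against 5 libraries. The scripts were tested on simulated data. Intervals of counting error cover reads only.

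The genes and lists were chosen with earlier results of these data known. Genes named are the 10 members, called genes of the theca, capping and all-cell actin lists, the 2 most abundant genes of each other list, 5 genes most alike in residual pattern (mean of at least 100) and Ddx25. Others are marked as chosen after their values were seen, or are partners in a ratio.

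After removal of genotype means, the correlations of same-numbered libraries were 0.466, 0.137, 0.433, 0.268 and 0.590. All exceeded 0.1, which was the bar set for pairing. Libraries of the other genotype in the same set but with another number correlated at 0.0119 to 0.432, so that the pairing cannot be told apart from the library set in every case. The main fit and the permutation tests were unpaired, and the paired form is given as the replicate block or sign-flip test. The read quality listed by the study differs between libraries 1 to 3 and libraries 4 and 5. Replicates of a genotype differed by more than sampling noise (lowest chi-square per degree of freedom, 2.67). Exon lengths were taken from the basic annotation of GENCODE vM21, 50-base words from its full set of transcripts, and start windows from RefSeq. No genome sequence was used here. Protein and histology experiments of the study were not analysed here.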

Additional observations from a re-analysis of the deposited data

Results flagged for a closer look

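Actl11 differed in the size of its fall between the library sets. The log2 fold change in libraries 4 and 5 minus that in libraries 1 to 3 was 0.94 (limma interaction, adjusted p = 0.0228). The fall was present in both sets, at −2.06 in libraries 1 to 3 and −1.12 in libraries 4 and 5. WT libraries held 9059 to 10429 normalised counts in the first set and 5845 and 7470 in the second, and KI libraries 2348 to 2384 and 2968 to 3095. A check for single libraries far from the other 4 of their genotype flagged 0 of 40 groups.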

How the results depend on the processing

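Under 26 alternatives, Actl9, Actl11, Actrt1, Actrt2 and Capza3 were called lower in every one, with log2 fold changes of −2.06 to −1.12 for Actl11 and −1.42 to −0.86 for the other 4. The count of members called lower was 5 to 8, and fell to 5 with library totals, with libraries 4 and 5 alone and at a fold of 2, each time through loss of Cylc1 and Cylc2. Adjusted p alone added Actl7a. Scaling by library totals moved the median of all genes to 0.25 and the calls from 1265 lower and 944 higher to 789 lower and 2145 higher, and upper quartile scaling to 0.12, 1025 and 1296. All genes called numbered 2209, 3529 on adjusted p alone and 969 at a fold of at least 2. With the replicate block, 7 members were lower and 2410 genes were called.

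Actl7b changed sign with library totals (0.19), upper quartile scaling (0.0545) and libraries 1 to 3 alone (0.11), and ranged from −0.0983 to 0.0396 when libraries were left out in turn. The Cylc1 to Cylc2 ratio ranged from −0.15 to 0.13 and the Actrt1 to Actrt2 ratio from −0.122 to 0.0116 in the same way. The ratio of Actl9 to Actl11 (0.60, exact permutation adjusted p = 0.0635) passed without KI5 (0.77, exact permutation adjusted p = 0.0254) and was 0.07 in libraries 4 and 5. The number of ratios that differed was 5, between 4 and 6 with libraries left out in turn, and 0 with the replicate block, where the Capza3 share (−19.0 percentage points) and the share of all reads (−0.0900) had an exact p of 0.0625, the smallest that 5 pairs allow. The cause of these shifts was not tested. Depth did not limit the members, which held at least 117 reads in every library.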
